A study of Mus musculus with 18 samples.

Results

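The comparison set 2 mouse embryonic stem cell (ESC) libraries with the code P15 against 2 with the code P2 and 2 with the code P4, which together are 6 of the 18 libraries of a small-RNA sequencing series on ESC derivation. Every group came from NMRI mice: the inner cell mass (ICM) was taken from blastocysts by immunosurgery and grown on gelatin, with no feeder cells named, in N2B27 medium with leukaemia inhibitory factor and the R2i inhibitors PD0325901, which blocks MEK, and SB431542, which blocks the activin and TGF-beta type I receptors. All 6 libraries therefore share strain, medium and both inhibitors, no untreated ESC is among them, and the labels do not say whether the duplicates were separate cultures, so p-values measure only the spread between these libraries. The groups are named by the code because the sources disagree on the passage: the libraries coded P15 are titled passage 2, those coded P2 are titled passage 4 and those coded P4 are titled passage 15. No passage order is drawn here.

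Members were all mature miRNA entries of the deposited table. Of 1390 entries, 1007 were above 0 in at least 1 of the 6 libraries, 383 were at 0 in all of them, and 528 reached a normalized count of 10 in at least 2 of the 6 and were tested. The summed normalized counts were 1191130 and 1265117 in P15, 781162 and 814289 in P2, and 1209786 and 906381 in P4 on a normalized scale, so the depth of each library is unknown. Duplicates differed by a median of 0.15 log2 units in P15, 0.16 in P2 and 0.28 in P4, so the P4 pair was the least alike. The ESC label was checked against the miR-290-295 cluster, which held 11.1% and 11.4% of the P15 totals. ICM libraries, at 17.8% and 15.7%, carried it too.

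miRNAs are cut from hairpin transcripts, first by Drosha and then by Dicer, and the arm loaded into Argonaute pairs with messenger RNAs mainly through bases 2 to 8, its seed. In mouse ESCs the miR-290-295 cluster is the best known family and supports rapid cycling, while let-7 rises with differentiation. The Dlk1-Dio3 region of chromosome 12 carries a large group of miRNAs transcribed from the maternally inherited allele together with the noncoding RNAs Meg3, Rian and Mirg, and its silencing is known in some cultured pluripotent lines. Another group, on the X chromosome, is known from germ cells of the testis.

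The sequences of the members on which the results turn are given from RefSeq (GRCm38.p6), 5′ to 3′, with the seed in capitals. RefSeq entries matched 1166 of the 1390 members and 423 of the 528 tested ones. From the Dlk1-Dio3 region, the first 4 are abundant members, the next 4 had the largest falls of the region among members with a mean of at least 100 and no overlap between P15 and the other codes, and the last 4 are the arms of 2 hairpins whose arms moved apart.
miR-541-5p: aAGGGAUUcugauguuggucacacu
miR-434-3p: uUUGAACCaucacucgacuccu
miR-411-5p: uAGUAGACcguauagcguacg
miR-410-3p: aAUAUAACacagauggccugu
miR-494-3p: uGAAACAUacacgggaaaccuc
miR-665-3p: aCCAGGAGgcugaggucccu
miR-409-5p: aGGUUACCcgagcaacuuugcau
miR-299a-3p: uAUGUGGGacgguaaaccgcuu
miR-673-5p: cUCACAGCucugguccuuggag
miR-673-3p: uCCGGGGCugaguucugugcacc
miR-337-5p: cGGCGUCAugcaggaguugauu
miR-337-3p: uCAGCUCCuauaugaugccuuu

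The seeds of these 12 differ from each other. Members of the X-linked cluster are shown next because the 5p arms of its miR-465 hairpins share the seed AUUUAGA while its other members do not.
miR-743b-3p: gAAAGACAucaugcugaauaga
miR-741-3p: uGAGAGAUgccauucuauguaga
miR-463-5p: uACCUAAUuuguuguccaucau
miR-871-5p: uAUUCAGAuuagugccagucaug
miR-470-5p: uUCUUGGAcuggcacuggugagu
miR-465a-5p: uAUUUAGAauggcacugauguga
miR-465b-5p: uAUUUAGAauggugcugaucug
miR-465c-5p: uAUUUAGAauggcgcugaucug

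Of the members that were higher in P15, the miR-183 cluster and the miR-181 family are shown for their near-shared or shared seeds, and the others because they had large rises or large shares.
miR-191-5p: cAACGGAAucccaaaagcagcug
miR-182-5p: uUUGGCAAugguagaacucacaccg
miR-183-5p: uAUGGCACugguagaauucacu
miR-96-5p: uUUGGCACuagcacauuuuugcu
miR-181a-5p: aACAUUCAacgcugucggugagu
miR-181b-5p: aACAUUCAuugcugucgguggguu
miR-181c-5p: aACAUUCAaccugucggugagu
miR-181d-5p: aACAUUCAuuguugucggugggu
miR-184-3p: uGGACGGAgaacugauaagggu
miR-1247-3p: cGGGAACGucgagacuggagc
miR-210-5p: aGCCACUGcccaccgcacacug
miR-6240: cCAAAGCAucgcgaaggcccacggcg
miR-2137: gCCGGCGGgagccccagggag
miR-5126: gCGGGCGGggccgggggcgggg

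The last set holds 3 pairs in which 1 paralog was listed at 0 in some libraries while the other was abundant in all of them.
miR-92a-3p: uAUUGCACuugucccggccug
miR-92b-3p: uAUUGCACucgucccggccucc
miR-26a-5p: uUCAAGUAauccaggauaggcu
miR-26b-5p: uUCAAGUAauucaggauaggu
miR-148a-3p: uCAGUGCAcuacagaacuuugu
miR-148b-3p: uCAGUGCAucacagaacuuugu

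Across the whole table, P15 was lower than P2 and P4 in the miRNAs of 2 genomic clusters and higher in a broad set of others. By limma on log2(normalized count + 1), with the P15 mean set against the average of the P2 and P4 means, 331 of 528 tested miRNAs passed a Benjamini-Hochberg adjusted p of 0.05, which is 62.7% of those tested. Of these, 173 were higher in P15 (32.8% of all tested) and 158 lower (29.9% of all tested). Both P15 libraries lay above all 4 others in 135 of the called miRNAs and below all 4 in 128. These are 25.6% and 24.2% of all 528 tested. Fitted against each code alone, 380 miRNAs were called against P2 (72%), with 172 higher (32.6%) and 208 lower (39.4%), and 328 against P4 (62.1%), with 185 higher (35%) and 143 lower (27.1%).

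P2 and P4 also differed from each other, and this bears on every count. With both treated as 1 group of 4, so that their difference entered the spread, 146 miRNAs were called, 51 higher and 95 lower. Scaling moved the split as well: the median log2 difference of all tested miRNAs was 0.17 as deposited and shifted by -0.41 when the 6 libraries were set to the same total, by -0.19 with TMM factors and by 0.19 with quantile normalization. At equal totals 117 miRNAs were higher and 202 lower. All log2 differences below are on the scale with 1 added.

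**Figure D1:**
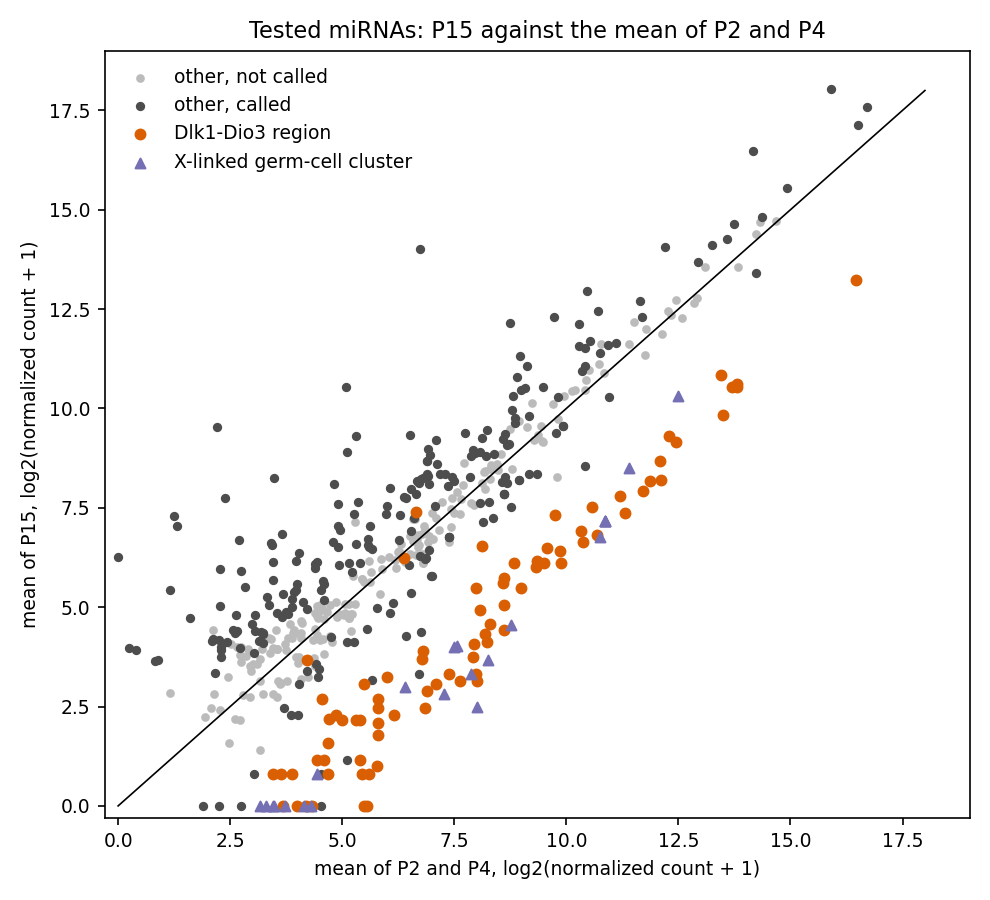
Mean log2(normalized count + 1) of the 2 P15 libraries (vertical) against the average of the P2 and P4 means (horizontal) for the 528 tested miRNAs, with the line of equality. The Dlk1-Dio3 region (78 of 81 called lower) and the X-linked germ-cell cluster (22 of 22 called lower) lie below the line, and most other called miRNAs (172 of 230) lie above it.

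The Dlk1-Dio3 miRNAs were an order of magnitude lower in P15 than in either other code. The region list holds 102 entries of the table, of which 81 were tested, and 78 of the 81 were called lower and 1 higher. Over all tested miRNAs, 29.9% were called lower. The median log2 difference of the 81 was -3.41, a 10.7-fold lower level, against 0.17 over all tested miRNAs. It was -3.42 against P2 and -3.58 against P4, and -2.99 with every value below 10 raised to 10. With P2 and P4 as 1 group, 70 of the 81 were called lower. In bulk libraries, fewer cells that express the region and less RNA per cell cannot be told apart.

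As a share of each library's total, the region held 1.75% and 1.84% in P15, 20.5% and 21.4% in P2, and 26.1% and 26.3% in P4. Outside the ESCs, it held 2.00% and 2.11% in the ICM and 11.8% and 11.4% in outgrowths at day 5. The P15 share was thus close to and below that of the ICM libraries. No test was made across those stages.

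The most abundant member, miR-541-5p, had normalized counts of 9725 and 9683 in P15, 55207 and 73215 in P2, and 170331 and 97066 in P4. It was the most abundant miRNA of the first P4 library, and both P15 libraries lay far below all 4 others. The log2 difference was -3.22 ± 0.26 (SE), with a limma adjusted p of 0.000167.

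miR-434-3p, transcribed opposite to an exon of the retrotransposon-derived gene Rtl1, gave 896 and 943 in P15, 12354 and 10699 in P2, and 9727 and 13784 in P4. P2 and P4 overlapped, and P15 stood apart below them (-3.65 ± 0.17 SE, limma adjusted p = 1.86e-05). miR-411-5p gave 1382 and 1589 in P15, 13819 and 13744 in P2, and 15637 and 14319 in P4, with a log2 difference of -3.28 ± 0.12 (SE, limma adjusted p = 7.26e-06). miR-410-3p, in an exon of Mirg, gave 1384 and 1608 in P15, 14951 and 14742 in P2, and 12165 and 11806 in P4. For these 3 the reduction from P2 and the reduction from P4 were close in size.

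Other members differed in how far P4 stood above P2. miR-668-3p, in an intron of Mirg, was 90 and 87 in P15, 180 in both P2 libraries, and 3383 and 2967 in P4. Its P15 values were the lowest of the 6, with a log2 difference of -1.02 against P2 and -5.15 against P4. miR-134-5p, studied in neurons as a regulator of dendritic spines, was 598 and 675 in P15, 3117 and 3251 in P2, and 8288 and 7345 in P4. In all, 47 of the 81 tested members had a higher mean in P4 than in P2. In 16 members with a mean of at least 1000 in both P2 and P4, P15 held 6.22% to 29.2% of the P2 level and 4.43% to 12.5% of the P4 level.

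Among members with a mean of at least 100 and no overlap between P15 and the other codes, the largest falls of the region were those of miR-494-3p, miR-665-3p, miR-409-5p, miR-299a-3p, miR-127-5p, miR-136-5p, miR-667-3p and miR-341-3p. miR-494-3p was at 10 and 6 in P15, 480 and 403 in P2, and 93 and 237 in P4 (-4.87 ± 0.41 SE, limma adjusted p = 0.000208). miR-665-3p was at 9 in both P15 libraries, 200 and 179 in P2, and 332 and 350 in P4 (-4.67 ± 0.13 SE, limma adjusted p = 7.11e-06). For the other 6 the log2 difference lay between -4.50 and -3.94. In the fit with all 18 libraries, calls were lost for miR-409-5p (limma adjusted p = 0.0838), miR-299a-3p (0.142), miR-127-5p (0.123) and miR-136-5p (0.0511).

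The fall covered the stretch from Meg3 to Mirg, which holds all members of the list. Between Meg3 and miR-665, 7 of 9 tested members were called lower, with a median log2 difference of -3.76. All 11 members antisense to Rtl1 (median -3.43), all 4 within Rian (-3.53), 34 of 35 from miR-379 to miR-539 (-3.50) and all 22 within Mirg (-3.21) were called lower. In 77 members both P15 libraries lay below all 4 others, and 6 members were listed at 0 in both P15 libraries. These 6 passed the filter only through P2 and P4 and could not have come out higher.

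A few members departed from this. miR-673-5p, from a hairpin just downstream of Meg3, was 152 and 186 in P15, 54 and 60 in P2, and 212 and 140 in P4. It was the 1 member called higher (0.76 ± 0.21 SE, limma adjusted p = 0.0233), and P15 lay above P2 and overlapped P4. No member of the list was called higher at equal totals, with TMM factors, with all 18 libraries, or with P2 and P4 as 1 group. miR-337-3p was 83 and 67 in P15, 113 and 59 in P2, and 42 and 159 in P4 and was not called, although its other arm fell, and miR-494-5p was not called either. miR-432 was listed at 2035 and 2012 in P2 and at 0 in P15 and P4 alike. Outside both arms of miR-673, miR-337-3p and miR-494-5p, 77 of 77 members were called lower, with log2 differences from -5.56 to -1.86. These 77 include miR-432, whose fall was against P2 only.

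**Figure D2:**
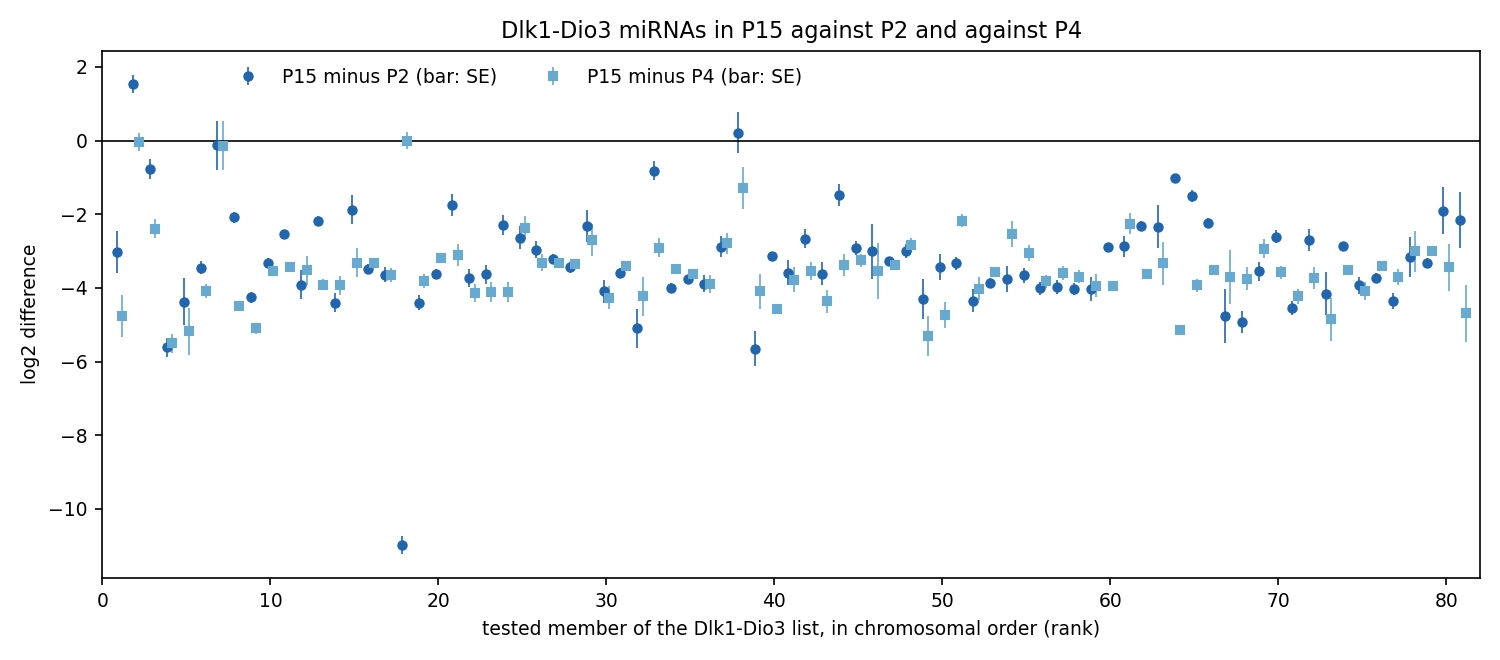
Log2 difference of P15 from P2 (circles) and from P4 (squares), with standard errors, for the 81 tested Dlk1-Dio3 members in chromosomal order. Most points lie between -2 and -5 along the whole list, with miR-673-5p, miR-337-3p and miR-494-5p near or above 0 and miR-432 far lower against P2 than against P4.

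miR-1247, which lies at the Dio3 end of the region and is not in the list, went the other way. The annotation (GENCODE vM21) puts it in an exon of Dio3os, at chr12:110278058-110278078 for the 3p arm. miR-1247-3p was 435 and 517 in P15, 51 and 46 in P2, and 29 and 18 in P4, a log2 difference of 3.79 ± 0.22 (SE, limma adjusted p = 4.41e-05). Its other arm, miR-1247-5p, was 100 and 95 in P15 against 12, 15, 8 and 6. Both arms were thus highest in the P15 libraries, with no overlap. Of 11 tested chromosome 12 miRNAs outside the list, 6, with miR-1247-3p among them, were called higher and none lower at this threshold. Outside Dlk1-Dio3 on all chromosomes the share called higher was 38.5%, and no difference from it was tested.

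The X-linked germ-cell cluster, at chrX:66776760-66839121, was lower in all its tested members. It has 36 entries in the table, 22 were tested, and all 22 were called lower, against 29.9% of all tested miRNAs. Both P15 libraries lay below all 4 others in each, against 24.2% called in this way over all tested. Of the 22, 7 were at 0 in both P15 libraries, so they passed the filter only through P2 and P4. Those 7 could not have come out higher. The entries miR-465a-3p, miR-465b-3p and miR-465c-3p have identical values and are 1 measurement. The median log2 difference was -3.70, with -3.20 against P2 and -4.21 against P4, and a range of -5.51 to -2.17. With P2 and P4 as 1 group, 17 of 22 were called lower. Elsewhere on the X chromosome 10 of 39 tested miRNAs were higher and 11 lower, with a median of -0.10.

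The cluster's share of the totals was 0.188% and 0.182% in P15, 0.965% and 0.928% in P2, and 5.09% and 3.94% in P4. ICM libraries held 4.85% and 5.76% and day 5 outgrowths 1.36% and 1.88%. These shares count the identical values of miR-465a-3p, miR-465b-3p and miR-465c-3p 3 times in each library. Unlike Dlk1-Dio3, whose share lay close to that of the ICM in P15, this cluster lay far below the ICM in P15 and near it in P4. P4 was above P2 in 19 of the 22 members.

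miR-743b-3p had the largest fall outside Dlk1-Dio3 among members with a mean of at least 100. It was 3 and 7 in P15, 268 and 283 in P2, and 267 and 212 in P4, a log2 difference of -5.51 ± 0.30 (SE, limma adjusted p = 3.33e-05). P2 and P4 were alike for this member. miR-465c-5p separated all 3 codes, with 99 and 118 in P15, 1129 and 1012 in P2, and 2673 and 2960 in P4 (-3.99 ± 0.13 SE, limma adjusted p = 7.11e-06).

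miR-470-5p, the most abundant member, was 1198 and 1357 in P15, 1717 and 1839 in P2, and 29582 and 11651 in P4. The P15 and P2 values were close, and the difference lay mainly against P4: -3.86 against P4 and -0.48 against P2, the latter with a limma adjusted p of 0.34. Its call was lost with P2 and P4 as 1 group (limma adjusted p = 0.282), as were those of miR-871-3p (0.0618) and miR-465a-3p (0.0515), whose values are identical to those of miR-465b-3p and miR-465c-3p in every ESC library. The other named falls of the cluster were miR-741-3p, miR-878-5p, miR-463-5p, miR-871-5p, miR-465b-5p and miR-881-3p, with log2 differences from -4.57 to -3.50. Summed over the shared seed AUUUAGA, the 3 miR-465 5p arms gave 119 and 143 in P15, 1266 and 1153 in P2, and 3245 and 3485 in P4. The 5p arms of miR-465b and miR-465c are identical at 21 of 22 positions, so reads may not be split between them with certainty.

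**Figure D3:**
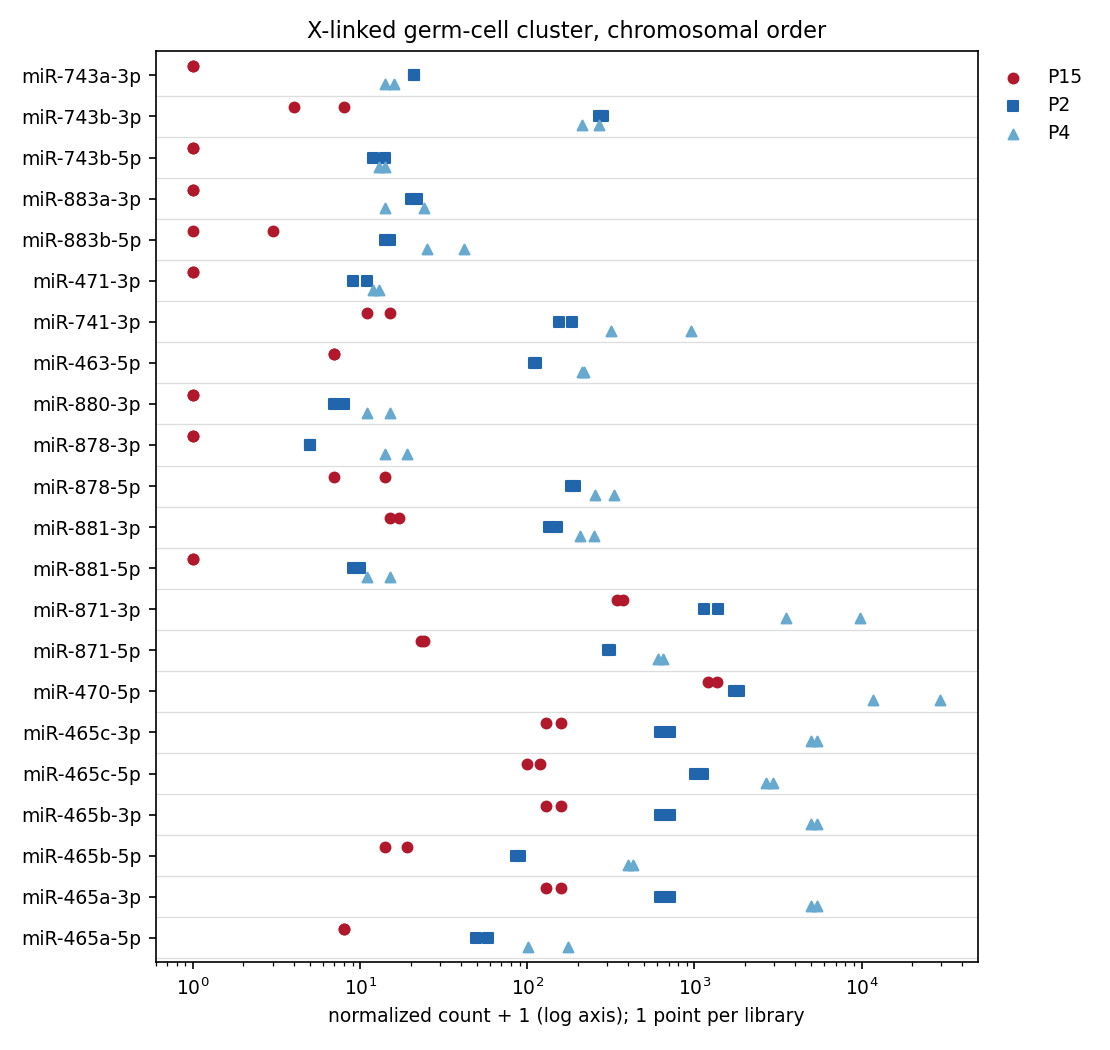
Normalized count + 1 on a log axis for the 22 tested members of the X-linked germ-cell cluster, in chromosomal order, with 1 point per library. In every row the P15 points lie to the left of the P2 and P4 points, and 7 members were at 0 in both P15 libraries.

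Outside both clusters the balance was towards higher levels in P15. Of 425 tested miRNAs, 172 were called higher and 58 lower, with a median log2 difference of 0.42. With non-overlapping libraries and at least a 2-fold difference, 103 were higher and 17 lower, and at 4-fold 43 and 7. This balance depended on the scale: over the 447 miRNAs outside Dlk1-Dio3, the split of 172 higher and 80 lower became 117 and 124 at equal totals, 144 and 100 with TMM factors and 214 and 62 with quantile normalization. Without the second P15 library it was 112 and 59, and with P2 and P4 as 1 group 51 and 25.

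Some abundant miRNAs took a larger part of P15. miR-191-5p, from a noncoding exon on chromosome 9, was 257990 and 279667 in P15, 41181 and 55977 in P2, and 132181 and 47602 in P4. It was the top miRNA of both P15 libraries, with 21.7% and 22.1% of their totals, and the P4 duplicates lay far apart. The log2 difference was 2.12 ± 0.42 (SE, limma adjusted p = 0.00655). Together miR-191-5p, miR-182-5p, miR-183-5p and miR-92a-3p made up 56.8% and 57.4% of the P15 totals and 28.4% to 33.9% of the other 4. These were the leading miRNAs of P15 itself, chosen after their values were seen, and the share of miR-92a-3p alone, 11.6% and 12.0% in P15, lay below the 13.1% of the second P4 library. miR-541-5p, also among the 10 most abundant, went the other way, with 0.816% and 0.765% in P15 and 7.07% to 14.1% elsewhere.

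The cluster of miR-183, miR-96 and miR-182, expressed from 1 transcript and best known from sensory organs, rose in 5 of 6 tested members, or in 3 with P2 and P4 as 1 group. Of all miRNAs tested outside Dlk1-Dio3 and the germ-cell cluster, 40.5% were called higher. miR-183-5p was 86214 and 95936 in P15, 11977 and 17860 in P2, and 39641 and 13597 in P4 (2.30 ± 0.44 SE, limma adjusted p = 0.00617). miR-182-5p was 194670 and 199202 in P15, 113745 and 121388 in P2, and 119225 and 77711 in P4 (0.89 ± 0.20 SE, limma adjusted p = 0.0104), although quantile normalization gave -0.09. miR-96-5p was 346 and 255 in P15 against 105, 121, 168 and 63. All 3 were highest in the P15 libraries with no overlap, and their rises differed in size.

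The miR-181 family, known from lymphocytes, rose in all 6 tested members, of which the 4 from the 5p arm share the seed ACAUUCA and the 2 from the 3p arm have another, with a median of 1.505 and with both P15 libraries above all 4 others in each. With P2 and P4 as 1 group 3 of the 6 were called. The share called higher outside Dlk1-Dio3 and the germ-cell cluster was 40.5% in the main fit. miR-181b-5p was 273 in both P15 libraries, 30 and 26 in P2, and 28 and 25 in P4, a log2 difference of 3.28 ± 0.14 (SE, limma adjusted p = 1.42e-05). In the fit with all 18 libraries its adjusted p was 0.165. miR-181d-5p, the most abundant member, was 1268 and 1297 in P15, 192 and 195 in P2, and 1050 and 1003 in P4, so it was near P4 and far above P2. miR-181a-5p was 1404 and 1427 in P15 against 397, 328, 636 and 780. Summed over the seed ACAUUCA, the 4 members from the 5p arm gave 3800 and 3862 in P15, 969 and 829 in P2, and 2319 and 2588 in P4.

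Other large rises were scattered over the genome. miR-184-3p, on chromosome 9, was 604 and 666 in P15, 10 and 12 in P2, and 199 and 85 in P4 (4.00 ± 0.35 SE, limma adjusted p = 0.000226), and with P2 and P4 as 1 group the adjusted p was 0.0696. miR-210-5p, from the hairpin whose 3p arm is the classical hypoxia miRNA, was 693 and 592 in P15, 57 and 47 in P2, and 155 and 163 in P4 (2.80 ± 0.14 SE, limma adjusted p = 2.35e-05). The 3p arm itself, miR-210-3p, was 1385 and 1545 in P15, 1123 and 961 in P2, and 258 and 307 in P4. Both arms were highest in P15, the 5p arm mainly against P2 and the 3p arm mainly against P4. miR-346-5p, in an intron of the glutamate receptor gene Grid1, was 176 and 210 in P15, 82 and 159 in P2, and 9 and 5 in P4, and its call was lost with P2 and P4 as 1 group (limma adjusted p = 0.245).

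miR-205-5p, an epithelial miRNA, was 1729 and 1819 in P15, 672 and 652 in P2, and 297 and 399 in P4 (1.89 ± 0.15 SE, limma adjusted p = 0.000133). miR-10b-5p, in introns of Hoxd3 and Hoxd4, was 2405 and 2686 in P15, 668 and 787 in P2, and 551 and 220 in P4 (2.34 ± 0.36 SE, limma adjusted p = 0.00273). Its relative miR-10a-5p did not separate this way, at 395 and 399 in P15, 41 and 50 in P2, and 1415 and 634 in P4. miR-151-3p, in an intron of the focal adhesion kinase gene Ptk2, was 15514 and 18739 in P15, 2291 and 2544 in P2, and 13422 and 6430 in P4. The P15 libraries were the highest for miR-205-5p, miR-10b-5p and miR-151-3p, with P2 lowest only for the last.

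The miR-200 family, which restrains the transcription factors Zeb1 and Zeb2 and is high in epithelial cells, rose in 5 of 8 tested members, or in 1 with P2 and P4 as 1 group. Outside Dlk1-Dio3 and the germ-cell cluster 40.5% of tested miRNAs were called higher, and the difference from that share was not tested. miR-141-3p was 450 and 464 in P15, 212 and 261 in P2, and 85 and 50 in P4, and miR-200c-3p was 319 and 328 against 164, 196, 101 and 60. Both come from chromosome 6, as does miR-141-5p, and all 3 were highest in P15. Of the chromosome 4 hairpins, miR-200a-5p and miR-200b-5p were called higher at low levels, 44 and 56 and 33 and 32 in P15. The more abundant miR-200b-3p was 1591 and 1261 in P15, 1551 and 1790 in P2, and 817 and 812 in P4. It overlapped and was not called, as were miR-200a-3p and miR-429-3p.

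Entries with high miRBase numbers were counted apart, and their difference from the other entries was not tested. Of 90 tested miRNAs numbered from 1900 outside Dlk1-Dio3, 57 were called higher and 6 lower, with a median of 1.34 (1.99 against P2 and 0.69 against P4), while of 335 with lower numbers outside both clusters 115 were higher and 52 lower, with a median of 0.30. The high-numbered entries held 4.58% and 4.88% of the P15 totals, 2.51% and 2.25% of P2, 3.21% and 2.77% of P4, and 18.5% and 18.9% of the ICM libraries. miR-6240 was 4157 and 4967 in P15, 375 and 367 in P2, and 578 and 429 in P4 (3.40 ± 0.16 SE, limma adjusted p = 1.86e-05). miR-2137, in an intron of Zfp185, was 4579 and 5547 in P15, 841 in both P2 libraries, and 865 and 820 in P4 (2.58 ± 0.12 SE, limma adjusted p = 1.72e-05). P2 and P4 were alike for these, and P15 stood clear of both. miR-5126, opposite to an exon of Dner and made only of G and C, was 7273 and 8759 in P15 against 997, 1116, 2388 and 1501.

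**Figure D4:**
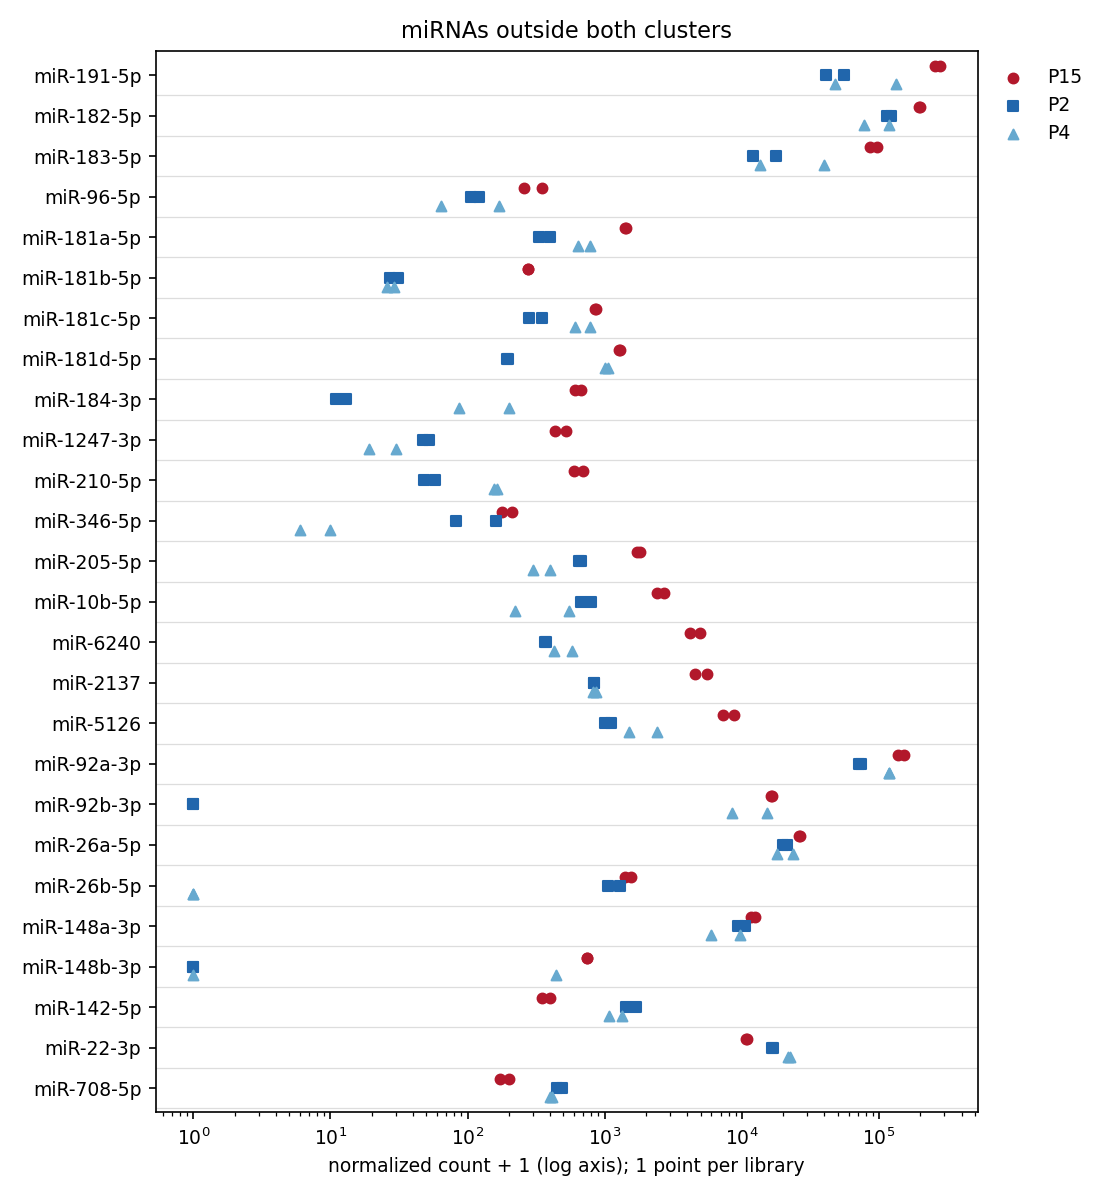
Normalized count + 1 on a log axis for 26 miRNAs outside both clusters, with 1 point per library and code. P15 lies right of P2 and P4 for the miR-183 and miR-181 members, and left of them for miR-142-5p, miR-22-3p and miR-708-5p. The points at 1 for miR-92b-3p, miR-26b-5p and miR-148b-3p are libraries in which they were listed at 0.

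The falls outside both clusters were fewer and smaller. miR-142-5p, a blood cell miRNA, was 350 and 397 in P15, 1417 and 1701 in P2, and 1344 and 1066 in P4 (-1.87 ± 0.15 SE, limma adjusted p = 0.000171), and its other arm miR-142-3p was 10 and 8 against 134, 132, 69 and 94. miR-22-3p was 10944 and 10712 in P15, 16774 and 16505 in P2, and 21556 and 22445 in P4 (-0.82 ± 0.10 SE, limma adjusted p = 0.00116). miR-708-5p, in an intron of Tenm4, was 199 and 170 in P15 against 450, 489, 400 and 411. For miR-142, miR-22-3p and miR-708-5p the P15 libraries were the lowest of the 6.

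miR-135b-3p was 23 and 17 in P15, 114 and 99 in P2, and 109 and 105 in P4, and miR-135b-5p was 7 and 9 against 79, 75, 31 and 33. miR-21a-5p was 1246 and 1258 in P15, 2598 and 2403 in P2, and 1410 and 1694 in P4, close to P4 and well under P2. The pair miR-221-3p and miR-222-3p, which target the cell cycle inhibitor p27, were both called lower (-1.14 and -1.19), though not with P2 and P4 as 1 group.

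The families that define pluripotent cells did not divide P15 from the other codes in 1 direction. In the miR-290-295 cluster 4 of 14 tested members were called higher and none lower, with a median of 0.22, but at equal totals 1 was higher and 3 lower, and none was called with P2 and P4 as 1 group. miR-292-5p was 42534 and 53924 in P15, 23942 and 22825 in P2, and 38252 and 43450 in P4 (0.63 ± 0.15 SE, limma adjusted p = 0.0122). miR-295-3p was 29447 and 24960 in P15, 31835 and 28559 in P2, and 21020 and 24714 in P4, and was not called (0.05 ± 0.14 SE, limma adjusted p = 0.773). The 3p arms of miR-291a, miR-294 and miR-295 share the seed AAGUGCU with miR-302b and miR-302d, and the summed values of the 5 overlapped between codes.

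P15 lay between P2 and P4 for the miR-302/miR-367 cluster, a marker of the primed epiblast. miR-302d-3p was 377 and 382 in P15, 1555 and 1687 in P2, and 57 and 67 in P4. None of 8 tested members was called against the mean of P2 and P4, with a median of -2.16 against P2 and 2.22 against P4. The let-7 family shared no single order. let-7c-5p was 318 and 303 in P15, 83 and 84 in P2, and 1898 and 1852 in P4. let-7g-5p was 124 and 118 in P15, 203 and 193 in P2, and 101 and 104 in P4. P15 lay between the other codes for both, with P4 highest for let-7c-5p and P2 highest for let-7g-5p, while let-7a-5p was highest in P15. Of 9 members 1 was called higher and 3 lower, and none with P2 and P4 as 1 group.

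The Sfmbt2 cluster, a set of repeated hairpins in an intron of that imprinted gene on chromosome 2, was called lower in 22 of 47 members and higher in 1, with a median of -1.25 against P2 and 0.49 against P4, and in none with P2 and P4 as 1 group. Outside Dlk1-Dio3 and the germ-cell cluster 13.6% of tested miRNAs were called lower. miR-669a-5p was 785 and 716 in P15, 1730 and 1834 in P2, and 556 and 490 in P4, so P15 lay between them. miR-669f-5p, at 18 and 19 in P15 against 139, 190, 44 and 43, was among 5 members below all 4. Some of these entries, such as miR-669a-5p and miR-669p-5p, have identical values in all 6 libraries and are not separate measurements. miR-298-5p, near the imprinted Gnas locus, was 23153 and 19680 in P15, 10799 and 10214 in P2, and 39921 and 31801 in P4, again between the other codes.

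In the miR-17-92 cluster and its paralogs 9 of 23 members were called higher and 5 lower, turning to 2 and 9 at equal totals and to none with P2 and P4 as 1 group. Outside Dlk1-Dio3 as a whole 172 of 447 were called higher. The miR-30 family was called higher in 7 of 11 (4 with P2 and P4 as 1 group), the clusters of miR-23, miR-27 and miR-24 in 5 of 7 (2), the miR-322 and miR-503 cluster of the X chromosome in 5 of 9 (0) and the miR-15/miR-16 family in 3 of 7 (1), the last a share near that of all miRNAs outside the region. No member of these 4 groups was called lower on the deposited scale, and 1 miR-30 member was at equal totals. miR-27b-3p was 16929 and 18850 in P15 against 8640, 9751, 12578 and 8586, and miR-351-5p was 3339 and 3350 against 1125, 1243, 2373 and 1440. Both were highest in P15. miR-16-5p, at 28514 and 28764 in P15, 23614 and 28763 in P2, and 17760 and 16140 in P4, reached the P2 level and exceeded P4.

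**Figure D5:**
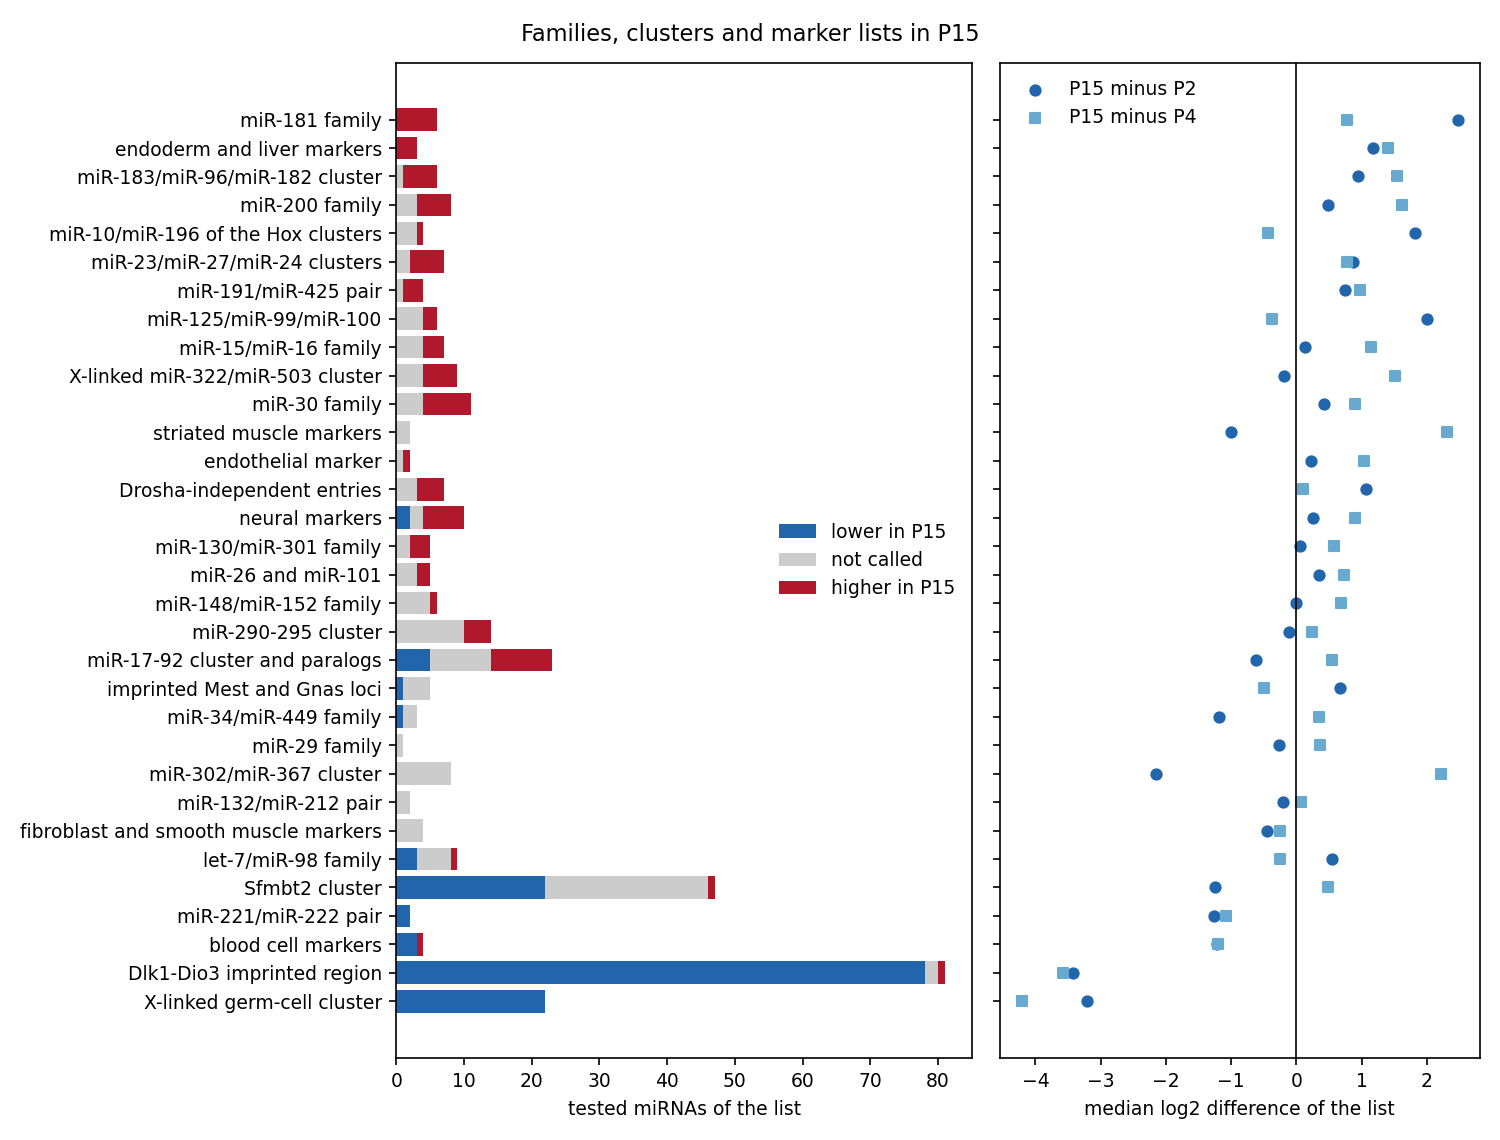
For each family, cluster and marker list, the tested miRNAs called lower, not called or called higher in P15 (left, counts) and the median log2 difference of P15 from P2 and from P4 (right). Both medians lie below -3 for the Dlk1-Dio3 region and the germ-cell cluster, and they lie on opposite sides of 0 for the miR-302/miR-367 and Sfmbt2 lists.

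Markers of other cell types differed by list, and their part in the results was not tested. Beside their counts, 40.5% of miRNAs tested outside Dlk1-Dio3 and the germ-cell cluster were called higher and 13.6% lower. Of 4 tested fibroblast and smooth muscle markers, 2 with identical values (miR-199a-3p and miR-199b-3p), none was called. The summed list was 1990 and 2189 in P15 and 1911 to 2518 elsewhere, and miR-199b-5p was at 0 in all 6 libraries. miR-10a and miR-10b, also planned as markers of these cells, were counted with the Hox clusters instead. Of them, miR-10b-5p was called higher (2.34 ± 0.36 SE, limma adjusted p = 0.00273). Of 4 tested blood markers 1 was higher and 3 lower. With P2 and P4 as 1 group these became 0 and 2. Their sum was 1067 and 1074 in P15 and 1806 to 2213 elsewhere, and miR-223-3p was at 0 in all 6. miR-486-5p was the 1 that rose (403 and 409 in P15 against 57, 65, 337 and 151), with values identical to those of miR-3107-5p.

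Of 10 tested neural markers 6 were higher and 2 lower (3 and 2 at equal totals or with TMM factors, 3 and 0 with P2 and P4 as 1 group), with sums of 975 and 1038 in P15 and 647 to 1003 elsewhere. The shares outside Dlk1-Dio3 and the germ-cell cluster were 40.5% higher and 13.6% lower. miR-124-3p was 69 and 64 against 15, 20, 32 and 17, and miR-9-5p was 86 and 89 against 55, 68, 32 and 50. Both were highest in P15 at low levels. The 2 called lower were miR-219b-3p, at 0 in both P15 libraries, and miR-219c-3p, at 2 and 0. Each was at 112 and 101 in P2 and at 4 in both P4 libraries. miR-138-5p, at 86 and 73 in P15, lay below P2 (189 and 145) and overlapped P4 (31 and 75). None of 2 tested striated muscle markers was called, and miR-206-3p and miR-208a-3p were at 0 in all 6 libraries. The 3 tested endoderm and liver markers were called higher (2 at equal totals, with TMM factors or with P2 and P4 as 1 group). Their list had sums of 3365 and 4015 in P15 and 1077 to 1693 elsewhere, while miR-122-5p, which defines hepatocytes, was at 0 in all 6. miR-194-5p, at 95 and 112 in P15, overlapped P2 (101 and 104) and exceeded only P4 (53 and 58). Of 2 tested entries of the endothelial marker miR-126a 1 was higher, with sums of 1074 and 1132 in P15 and 366 to 732 elsewhere. miR-375-3p, high in endocrine cells, was 468 and 542 in P15 against 130, 101, 121 and 131, and miR-192-5p was 2802 and 3361 against 1312, 1414, 1519 and 875.

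Some of the largest rises on the list belonged to paralogs listed at 0. miR-92b-3p was 16434 and 16593 in P15, 0 in both P2 libraries, and 15201 and 8526 in P4. miR-26b-5p, in an intron of Ctdsp1, was 1412 and 1562 in P15, 1057 and 1289 in P2, and 0 in both P4 libraries. miR-148b-3p was 745 and 744 in P15, 0 in both P2 libraries, and 0 and 439 in P4. In each case P15 was less than 2-fold above the libraries that were not at 0, and no fold is given against the zeros. All 3 calls were lost with P2 and P4 as 1 group (limma adjusted p = 0.336, 0.343 and 0.105).

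The close relatives of these 3 were abundant in every library. miR-92a-3p, identical to miR-92b-3p at 19 of 21 positions and sharing its seed, was 137705 and 151810 in P15, 74501 and 71583 in P2, and 119083 and 118837 in P4 (0.63 ± 0.12 SE, limma adjusted p = 0.00563, but -0.16 with quantile normalization). Summed over the seed AUUGCAC, 5 miRNAs gave 167166 and 183214 in P15, 84445 and 82093 in P2, and 143094 and 133980 in P4, so P15 was still highest. For the seed UCAAGUA, miR-26a-5p and miR-26b-5p gave 27913 and 27603 in P15 against 21044, 22518, 23612 and 18007. For CAGUGCA, the miR-148 and miR-152 members gave 12462 and 13125 in P15 against 9435, 10559, 9635 and 6441. The sums differed far less between codes than the 3 paralogs listed at 0. For AUUGCAC the sum put P15 no closer to P2 than miR-92a-3p alone did.

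In all, 13 tested miRNAs were listed at 0 in 1 ESC library and at 100 or more in another. Several of them separated duplicates. miR-290a-5p was 0 and 710 in P15, 0 in both P2 libraries, and 515 and 467 in P4, and miR-148b-3p, miR-346-3p, miR-7000-5p, miR-7671-5p and miR-6931-5p were each at 0 in 1 P4 library and above 0 in the other. miR-6931-5p was 264 and 351 in P15, 21 and 30 in P2, and 0 and 22 in P4, called in the fit (limma adjusted p = 0.0164) and lost with P2 and P4 as 1 group (0.0612). Without the 13, 323 miRNAs were called, 169 higher and 154 lower.

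The balance of the 2 arms of a hairpin does not depend on library scaling, except at low values, where the 1 added to each arm weighs. Of 128 hairpins with both arms tested, 18 were called (14.1%). Against the average of the P2 and P4 means, 13 had a larger 5p share in P15 and 5 a smaller one. For miR-673 the log2 ratio of 5p to 3p was 0.63 and 1.12 in P15, -1.46 and -1.44 in P2, and -1.57 and -1.39 in P4, so the arms changed order (limma adjusted p = 0.00326). For miR-337 it was -0.28 and 0.04 in P15, 2.83 and 3.56 in P2, and 4.54 and 3.11 in P4 (limma adjusted p = 0.0111). In both, P15 stood apart from all 4 other libraries. This did not hold for every call. For miR-26b, called with a larger 5p share, the ratio was 5.42 and 6.15 in P15 and 6.46 and 6.63 in P2. In P4, where miR-26b-5p was listed at 0, it was -4.17 and -3.17. P15 also lay between P2 and P4 for miR-669o and miR-210, so these 3 calls give no common direction against both codes. The count was unstable, with 3 hairpins called with P2 and P4 as 1 group, 3 without either P2 library and 56 without the first P4 library.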

How the data were processed

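Small RNA was isolated with a PureLink kit, made into TruSeq libraries and sequenced on an Illumina GAIIx, per the labels' protocols. The authors deposited 1 table with 1 score for each mature miRNA in each library, which is a whole-number rounding of normalized counts. The submitters' processing notes name cutadapt, DESeq2 1.30.0 and mm10, without their roles. Neither the aligner nor the counting rule and annotation could be taken from these notes. No sample column was left out (0 matched no sample).

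The 6 ESC libraries, grouped by code, were fitted with limma 3.58.1 (trend and robust options, R 4.3.3) on log2(normalized count + 1) with 3 group means, which leaves 3 residual degrees of freedom. Values are not raw counts, so no count model was used, and factors by the trimmed mean of M values (TMM) served as 1 alternative scaling. miRNAs at 10 or more in at least 2 of the 6 libraries were tested, with Benjamini-Hochberg adjustment over all of them at 0.05. The contrast was P15 minus the average of the P2 and P4 means. The contrasts with P2 and P4 alone share the P15 libraries with it. Arm balance was fitted the same way on log2 ratios with 1 added to each arm. The scripts were tested on simulated data. The simulation had 1 dispersion for all miRNAs and no difference between P2 and P4, unlike these data. It therefore checks the code and not the error rates here.

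Lists were described by their counts and medians. Named were, among called miRNAs with a mean of at least 100 and non-overlapping libraries, the 12 largest rises and 12 largest falls outside Dlk1-Dio3 and 6 rises and 8 falls inside it (no rise qualified), with the 10 most abundant and the most abundant of each list. Other miRNAs were named after their values were seen. The members and lists were chosen with earlier results of these data known. Positions are from RefSeq GRCm38.p6 and GENCODE vM21 (mm10), and 1380 entries were placed, each at the first locus listed for it. Alternatives covered the pseudocount, filters, scaling, a common floor of 10, weights, the libraries in the fit, P2 and P4 as 1 group, a replicate block and leaving out each library. Counting identical values once, and leaving out the miRNAs at 0 in 1 library and high in another, were added after seeing the data.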

Additional observations from a re-analysis of the deposited data

How the results depend on the processing

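In the comparison with the mean of P2 and P4, leaving out 1 library gave 250 to 369 called miRNAs. Requiring a mean of at least 100 tested fewer miRNAs and called 180 (135 outside Dlk1-Dio3, 45 inside), with 205 against P2 and 178 against P4. The fit with all 18 libraries called 179 (117 outside), with 179 against P2 and 152 against P4. With P2 and P4 as 1 group 146 were called, 76 of them outside Dlk1-Dio3. The Dlk1-Dio3 median of -3.41 became -2.78 with a pseudocount of 10, -3.82 at equal totals, -3.60 with TMM factors, -3.21 with quantile normalization and -2.99 with values below 10 raised to 10. The median outside it, 0.39, became 0.26, -0.0161, 0.19, 0.57 and 0.25 under the same settings. Hairpins called for arm balance numbered 53 with a pseudocount of 10, 5 with both arms at a mean of at least 100, 3 with P2 and P4 as 1 group, and 3 to 56 when 1 library was left out.

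The sign of some small differences turned. At equal totals miR-295-3p was -0.38, miR-298-5p -0.28, miR-26a-5p -0.0756, miR-302d-3p -0.17, miR-200b-3p -0.14, miR-29a-3p -0.37, miR-130a-3p -0.16, miR-143-3p -0.38 and miR-128-3p -0.0484. With TMM factors miR-295-3p was -0.16, miR-298-5p -0.0641, miR-29a-3p -0.16 and miR-143-3p -0.16. With quantile normalization miR-182-5p was -0.0889, miR-92a-3p -0.16, miR-295-3p -0.0864, miR-298-5p -0.0976, let-7c-5p 0.0016 and miR-30d-5p 0.0612. miR-499-5p was -0.0812 with a pseudocount of 10 and -0.51 with the floor. Leaving out 1 library gave -0.0708 to 0.1677 for miR-295-3p, -0.1032 to 0.1973 for miR-29a-3p, -0.0875 to 0.1813 for miR-143-3p and -0.1833 to 1.2203 for miR-499-5p. The causes were not tested beyond what the settings themselves change.

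Replicate numbers did not pair the libraries: same-numbered deviations correlated at 0.045 for P15 with P2, -0.055 for P15 with P4 and -0.376 for P2 with P4, over 262 miRNAs. With the replicate block 315 miRNAs were called, 364 against P2 and 300 against P4, and 16 hairpins. There were 2 libraries per code, and the reads behind each value are unknown.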

Other observations

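Of the miRNAs outside Dlk1-Dio3 and the germ-cell cluster 172 of 425 were called higher and 58 lower, and 3 chromosomes are described here, chosen after their values were seen. On chromosome 9, which carries miR-191-5p and miR-184-3p, 11 of 16 tested miRNAs were higher in P15 and 2 lower, with a median log2 difference of 1.71. On chromosome 1, which carries miR-205-5p, miR-375-3p and 1 of the 2 loci of miR-181a-5p, 21 of 28 were higher and 2 lower, with a median of 1.11. A miRNA with more than 1 locus was counted only at the first locus listed, though its reads may come from any of them. Chromosome 2, which holds the Sfmbt2 cluster, had 9 higher and 22 lower of 66, with a median of -0.36. Members of 1 cluster are not independent, and no test of chromosomes was made.

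Other rises were at low levels. miR-125b-5p, a brake on differentiation in blood and muscle lineages, was 41 and 49 in P15 against 5, 6, 14 and 3, and miR-125b-1-3p was 61 and 62 against 4, 5, 5 and 2. miR-205-3p was 132 and 131 against 50, 40, 14 and 25. miR-7688-5p was 72 and 81 in P15 and listed at 0 in all 4 other libraries. miR-6236 was 200 and 228 in P15, 0 in both P2 libraries, and 27 and 25 in P4. In the other direction, miR-219b-3p was 112 and 101 in P2, 4 in both P4 libraries and 0 in both P15 libraries, and miR-34c-5p, of a family induced by p53, was 149 and 150 in P15 against 518, 421, 196 and 271. miR-532-5p, in an intron of the X-linked gene Clcn5, was 316 and 330 against 542, 519, 608 and 627.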
